A study of Rattus norvegicus with 10 samples.

Results

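Chromosome 19 of the rat was described here as 1 set of methyl-capture regions, namely all regions of the deposited table that lie on chromosome 19 of the genome build RN4, apart from those overlapping the intervals from 51873383 to 52073932 and from 55542144 to 55742766. This left 17550 of the 17759 regions on the chromosome and of the 574544 regions in the table. Of the 209 regions left out, 130 were tested and 5 were hypermethylated by the criteria below. The chromosome was selected on measured values, because among the 20 autosomes it had the highest share of regions with more tags in rats after status epilepticus (SE) than in controls. Comparisons of SE with control rats on it are therefore a description, and chromosome 19 was not tested against the rest of the genome. Within the chromosome, SE was compared with control in windows of 2 Mb, and the values were set beside those that local region density gave on the other autosomes.

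All animals were male Sprague-Dawley rats of 290 to 320 g with an electrode in the lateral amygdala nucleus of the left side. In SE rats 30 min of electrical pulses (400 µA, 60 Hz) through this electrode evoked SE, which was stopped with diazepam, and control rats carried the electrodes without receiving stimulation. Tissue holding CA3 and the dentate gyrus of the left hippocampus was collected 3 months after SE, and 1 library was made per rat from methylated DNA captured with the MethylMiner kit. The labels list 5 rats per group. For control rat 2 and SE rat 7 they carry the word discarded, with no reason, so control rats 1, 3, 4 and 5 were compared with SE rats 6, 8, 9 and 10. The study reports spontaneous seizures on video EEG in every stimulated rat it enrolled. Stimulation, SE, diazepam and these later seizures cannot be told apart in this design.

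In mammals DNA methylation sits mostly on the cytosine of CpG dinucleotides. It is dense over repeats and gene bodies and low at most CpG islands. Methyl-capture uses the methyl-CpG binding domain of MBD2 to pull down double-stranded fragments, and the yield of a fragment depends on how many methylated CpGs it holds as well as on how often they are methylated. A tag count is therefore a measure of captured methylated DNA and not a methylation level. In a piece of tissue, a shift between cell types and a shift within cells cannot be told apart, and tags of methylated DNA gave no check of the labelled tissue by marker genes.

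The 8 libraries held between 5499370 and 7179519 tags in the regions of the table. SE rat 7 stood apart, with 14655629 tags, while control rat 2 had 7154696. Chromosome 19 regions spanned positions 916 to 59212664, at 296 regions per Mb. Their median length was 471 bp, against 457 bp on the other autosomes. Local region density, the number of other regions with a midpoint within 50 kb on either side, had a median of 38 on chromosome 19 and 32 on the other autosomes. Regions in the upper part of the table by summed count were tested, which took in 9367 chromosome 19 regions (53.4%), against 50.8% of the whole table. The tested chromosome 19 regions held a median of 12.4 tags per library.

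The share of tags on chromosome 19 was higher in most SE rats than in most control rats. Control rats 1, 3, 4 and 5 had 3.13, 3.03, 3.00 and 3.02% of their tags in its regions, and SE rats 6, 8, 9 and 10 had 3.17, 3.11, 3.19 and 3.21%. Control rat 1 stood above SE rat 8, so that the groups overlapped. The SE mean, 3.17 ± 0.0437% (SD, n = 4), exceeded the control mean, 3.05 ± 0.06% (SD, n = 4), by 0.123 percentage points. The discarded rats had 3.22% (control rat 2) and 3.36% (SE rat 7), both above all 8 rats used.

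On chromosome 19, more regions were called hypermethylated than hypomethylated in SE rats, the reverse of the genome as a whole, and this share chose the chromosome. With the quasi-likelihood test of edgeR and an unadjusted p below 0.01 as threshold, 90 of 9367 regions (0.961%) had more tags in SE rats and 54 (0.576%) had fewer. Over all 291987 tested regions 0.584% were called hypermethylated and 1.07% hypomethylated at the same threshold. The exact binomial 95% intervals ran from 0.773 to 1.18% for the hypermethylated and from 0.433 to 0.752% for the hypomethylated share, which covers counting error only and takes regions as independent, which neighbours are not. Chromosomes 10 and 12, the autosomes next in rank, each had 0.893% hypermethylated regions, 150 of 16803 and 88 of 9850. Their hypomethylated shares, 0.381% and 0.213%, were lower than that of chromosome 19.

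Single regions of the chromosome did not hold up against correction for the number of tests. At an adjusted p below 0.05 (edgeR's quasi-likelihood test, Benjamini-Hochberg adjustment) 0 chromosome 19 regions were called, against 0.00616% of all tested regions, and the smallest adjusted p was 0.27. At an unadjusted p below 0.05 the same test called 587 (6.27%), against 6.9% of all tested regions. DESeq2's Wald test called 1 of the 574 chromosome 19 regions that it gave an adjusted p, at an adjusted p below 0.05, against 0.0753% of all regions with such a value. All 4 SE rats lay above all 4 control rats in 204 regions (2.18%), against 1.69% of all tested regions, and below them in 128 (1.37%), against 1.94%. The groups did not overlap in 50 of the 90 hypermethylated and 27 of the 54 hypomethylated regions. These regions were called on the same libraries, so a lack of overlap is partly built in by the call. No such share was obtained for the called regions of the whole genome, so whether these counts are usual was not tested.

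The shift was spread over many regions and small in most. The mean log2 fold change of tag counts, SE over control, was 0.0405 over the tested chromosome 19 regions and -0.0107 over those of the other autosomes. It was positive in 5172 regions (55.2%), against 50.3% of all tested regions. Values on either side of the threshold differed little. Just inside it among hypermethylated regions lay those from 49960195 to 49961127 (log2 fold change 0.72) and from 52919988 to 52921666 (0.61), and just outside those from 46907065 to 46907454 (1.06) and from 38667380 to 38668658 (0.70). Among regions lower in SE, those from 56954279 to 56954918 (-1.07) and from 39016021 to 39016471 (-1.07) lay just inside, and those from 37642621 to 37643335 (-0.86) and from 1111842 to 1112409 (-1.06) just outside.

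Mapped in 2 Mb windows, tags summed over the regions were higher in SE rats along most of the chromosome and lower from 2 to 8 Mb. Window 1 starts at the first base of the chromosome, and each of the 30 windows held between 146 and 912 regions. The log2 fold change was positive in 23 of them. At an adjusted p below 0.05 over all 1340 windows of the genome (edgeR's quasi-likelihood test), 13 windows (43.3%) were called higher in SE rats, against 27.6% of all windows, and 3 (10.0%) lower, against 29.1%. The median log2 fold change was 0.0507 over the windows of chromosome 19 and -0.00875 over all windows, with a median standard error of 0.0327 on chromosome 19. Every SE rat lay above every control rat in 3 windows (10.0%, against 16.5% of all windows), which were those from 16 to 18 Mb, from 46 to 48 Mb and from 48 to 50 Mb. Every SE rat lay below every control rat in 2 windows (6.67%, against 17.9%).

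**Figure D1:**
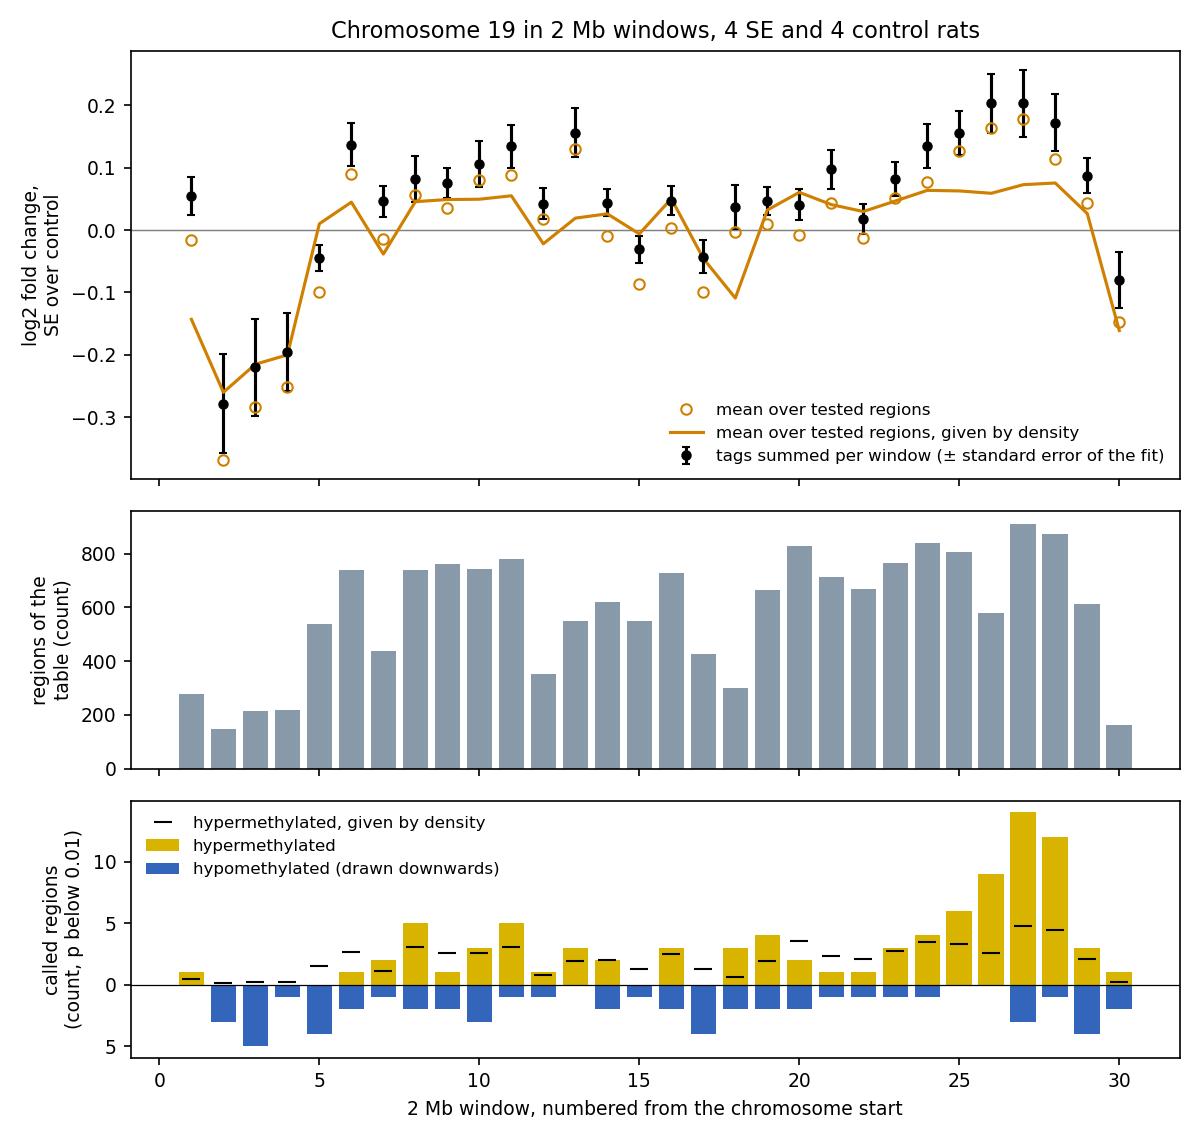
Chromosome 19 in 30 windows of 2 Mb, numbered from the chromosome start. The upper panel plots the log2 fold change of summed tags (black points, bars are the standard error of the fit, 4 SE against 4 control rats), the mean over the tested regions (open circles) and the mean that local density gives (line), the middle panel the number of regions, and the lower panel the called regions, with hypomethylated ones drawn downwards. Windows 2 to 4 lie lowest, windows 26 to 28 highest, and window 27 holds 14 hypermethylated regions.

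The 4 windows with the highest log2 fold changes were windows 26, 27, 28 and 13, of which the first 3 adjoin one another. In window 26, from 50 to 52 Mb, control rats 1, 3, 4 and 5 had 1155, 1017, 981 and 1057 counts scaled to a library of 1000000 tags (CPM) and SE rats 6, 8, 9 and 10 had 1210, 1143, 1202 and 1290. SE rat 8 lay below control rat 1, and the other SE rats above all control rats. This amounted to a log2 fold change of 0.203 (standard error 0.0475).

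Window 27, from 52 to 54 Mb, was the densest of the chromosome, with 912 regions. Its CPM was 2038, 1796, 1707 and 1803 in the control rats and 2116, 1981, 2127 and 2226 in the SE rats, in the same order of rats. Here too control rat 1 lay above SE rat 8 alone, and the fitted log2 fold change was 0.203 (standard error 0.0531). This window held 14 hypermethylated and 3 hypomethylated regions, the former being the most of any window of chromosome 19.

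In window 28, from 54 to 56 Mb, the control rats had 1836, 1636, 1574 and 1631 CPM and the SE rats 1908, 1816, 1847 and 1949 (log2 fold change 0.172, standard error 0.0455), with 12 hypermethylated regions. In window 13, from 24 to 26 Mb, the control rats had 1032, 942, 931 and 916 CPM and the SE rats 1040, 1024, 1065 and 1127 (log2 fold change 0.156, standard error 0.0391). SE rat 8 was again the only SE rat below control rat 1 in both windows. Window 25, from 48 to 50 Mb, followed closely at 0.155.

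The 4 lowest windows lay towards the ends of the chromosome and held few regions. Window 2, from 2 to 4 Mb, was the sparsest, with 146 regions. The control rats had 200, 220, 251 and 232 CPM there and the SE rats 186, 206, 180 and 172. SE rat 8 lay above control rat 1, so that the groups overlapped, and the log2 fold change was -0.278 (standard error 0.0798). Window 3, from 4 to 6 Mb, had 289, 341, 377 and 362 CPM in control rats and 300, 318, 278 and 280 in SE rats (log2 fold change -0.22, standard error 0.0772). Control rat 1 was the only control rat within the range of the SE rats. In window 4, from 6 to 8 Mb, the control rats had 291, 310, 348 and 341 CPM and the SE rats 288, 288, 288 and 263, and the groups did not overlap (log2 fold change -0.195, standard error 0.0626). At the far end, window 30, from 58 to 60 Mb, had 286, 294, 295 and 286 CPM in control rats and 275, 275, 267 and 281 in SE rats, without overlap (log2 fold change -0.0797, standard error 0.0449, not called).

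Among the control rats, rat 1 lay nearest to the SE rats. It was the highest control rat in 20 of the 30 windows and in all 13 windows called higher in SE. SE rats 6, 9 and 10 lay above every control rat in 18, 22 and 21 windows, and SE rat 8 in 5. Without control rat 1 the number of windows called higher was 18, and without any other single rat it lay between 8 and 14.

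The called regions were not spread evenly over the length of the chromosome. In the first 20 Mb 13 of 2458 tested regions (0.529%) were hypermethylated, from 20 to 40 Mb 23 of 3009 (0.764%), and from 40 Mb to the end 54 of 3900 (1.38%). Hypomethylated regions numbered 23, 17 and 14 in the same stretches. A run of 5 windows from 46 to 56 Mb, chosen after its values were seen, held 25.6% of the tested regions and 45 of the 90 hypermethylated ones (1.88% of 2398), with 5 hypomethylated regions. The rest of the chromosome held the other 45 (0.646%). A run from 2 to 10 Mb, chosen in the same way, had 13 hypomethylated and 0 hypermethylated regions among 504 tested, where 0 allows a share of up to 0.595% by counting error only. Neighbouring hypermethylated regions lay a median of 270 kb apart, and 29 of these neighbours lay within 100 kb of each other. The longest stretch without one ran for 10.2 Mb from 690440 to 10926187 and held 809 tested regions. Hypomethylated regions lay a median of 790 kb apart, with 8 neighbours within 100 kb, and none was called from 46592596 to 52151721, a stretch with 1176 tested regions.

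The position of a region in dense or sparse surroundings moved with its fold change, on chromosome 19 as on the other autosomes. Across the 30 windows, the number of regions and the log2 fold change had a Spearman correlation of 0.703, and across the 1254 windows of the other autosomes one of 0.804. These windows share the same 8 libraries and their depth, and the values are a description. Hypermethylated regions of chromosome 19 had a median density of 42, hypomethylated ones of 28.5, and all its tested regions of 39. Of the hypermethylated regions 57 (63.3%) had 40 or more others within 50 kb, as did 14 (25.9%) of the hypomethylated and 48.4% of all tested regions of the chromosome. Fewer than 20 neighbours were found for 4 hypermethylated regions and for 22 (40.7%) of the hypomethylated ones, against 10.1% of all tested. Median lengths were 687 bp in hypermethylated, 624 bp in hypomethylated and 614 bp in all tested regions of the chromosome. A length of 1000 bp or more was found in 29 of the 90 hypermethylated regions. It was found in 8 of the 54 hypomethylated and 1230 of the 9367 tested regions.

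In 5 density groups, the direction of the mean shift changed between sparse and dense surroundings. In the sparsest group, with 0 to 19 neighbours, the mean log2 fold change was -0.163 on chromosome 19 and -0.192 on the other autosomes. With 20 to 29 neighbours the values were 0.00193 and -0.0245, with 30 to 37 neighbours 0.0388 and 0.0362, and with 38 to 46 neighbours 0.0704 and 0.0666. In the densest group, with 47 to 81 neighbours, they were 0.107 and 0.0829. Chromosome 19 thus lay above the other autosomes in all 5 groups, by little with 30 to 46 neighbours, on the contrast that chose the chromosome.

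The hypermethylated share ran from 0.424% (4 of 944 regions) in the sparsest group to 1.23% (32 of 2605) in the densest group on chromosome 19. On the other autosomes it ran from 0.248 to 0.846%. In between, chromosome 19 had 0.861, 0.688 and 1.14%, and the other autosomes 0.431, 0.615 and 0.753%. Its hypomethylated share was highest in the sparsest group, at 2.33% (22 regions) against 3.21% elsewhere, and lowest in the densest, at 0.192% (5 regions) against 0.196%. In between, chromosome 19 had 0.431, 0.423 and 0.513% hypomethylated regions, and the other autosomes 0.938, 0.422 and 0.29%. With 38 to 46 neighbours (13 regions) its hypomethylated share was thus above that of the other autosomes. The makeup of the chromosome differed from the rest, since 27.8% of its tested regions fell in the densest and 10.1% in the sparsest group, against 17.9 and 21.6% on the other autosomes.

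**Figure D2:**
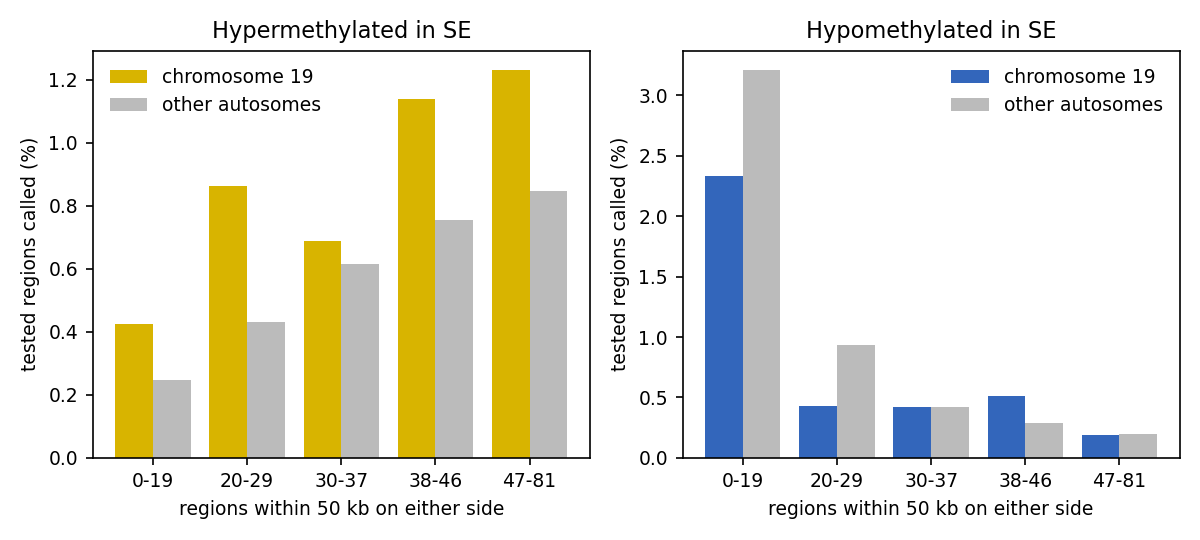
Share of tested regions called hypermethylated (left) and hypomethylated (right) in SE at p below 0.01, in 5 groups by the number of other regions within 50 kb on either side, on chromosome 19 and on the other autosomes. The hypermethylated share runs from 0.424 to 1.23% on chromosome 19 and from 0.248 to 0.846% elsewhere, and the hypomethylated share is highest in the sparsest group on both.

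Local density gave part of the hypermethylated share of chromosome 19. When the tested regions of the other autosomes were weighted to the density of chromosome 19 in 20 density bins, their hypermethylated share was 0.655%, between their unweighted 0.569% and the 0.961% of chromosome 19. This stands for 61.3 regions, against the 90 called. The ratio of observed to given share was 1.47, the highest of the 20 autosomes treated in the same way, on the share that chose the chromosome, followed by 1.44 for chromosome 10, 1.32 for chromosome 5 and 1.19 for chromosome 12. The hypomethylated share given by density was 0.665%, or 62.3 regions, against 0.576% and 54 regions called. Density gave a mean log2 fold change of 0.0266, against the 0.0405 measured. By this measured mean chromosome 19 ranked 3rd of the autosomes, after 0.0945 on chromosome 12 and 0.0581 on chromosome 10. By the excess of the measured over the given mean, 0.0139, it ranked 6th, with 0.0404 on chromosome 10, 0.0373 on chromosome 12 and 0.0289 on chromosome 1 the highest. Chromosomes 12 and 20 had denser surroundings, with a median of 45 and 44 neighbours in their tested regions, against 39 on chromosome 19.

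The ratio of 1.47 moved with single rats. Without SE rat 6 the observed share was 0.68% against 0.655% given by density, a ratio of 1.04, and chromosome 19 ranked 6th of the 20 autosomes by hypermethylated share. Without control rat 5 the shares were 0.652 and 0.569%, a ratio of 1.15. With any other single rat left out, the ratio lay between 1.33 and 1.45.

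**Figure D3:**
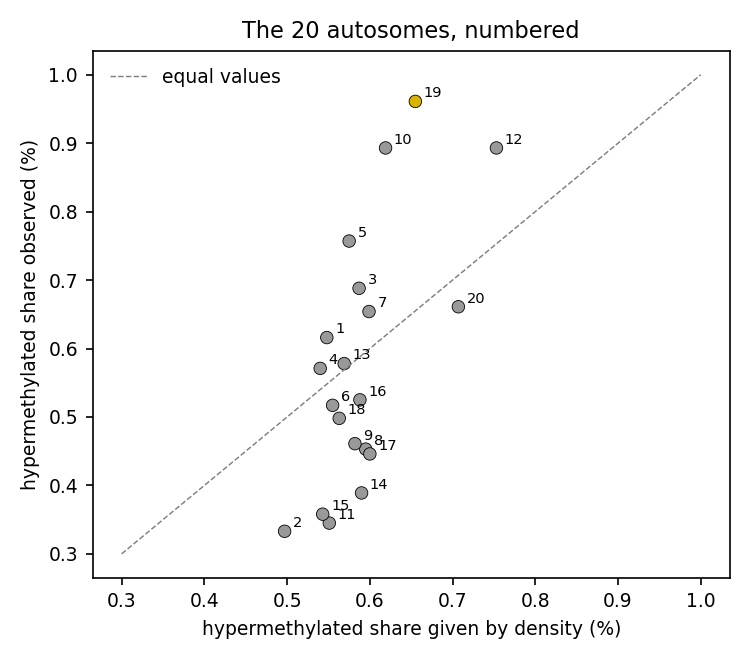
Hypermethylated share of the tested regions of each of the 20 autosomes (vertical axis, %) against the share given by local region density on the other autosomes (horizontal axis, %). The dashed line marks equal values, and chromosome 19 is drawn in yellow at 0.655% given and 0.961% observed, with chromosomes 10 and 12 next highest at 0.893%.

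Along the chromosome, the excess over the density-given number lay in the distal part. From 40 Mb to the end 54 regions were hypermethylated and density gave 28.0, whereas the numbers were 13 and 14.5 in the first 20 Mb and 23 and 18.9 from 20 to 40 Mb. In the run from 46 to 56 Mb 45 were called and 18.6 given by density. That number was 26, against 18 given, without SE rat 6, and 31, against 16.0, without control rat 5. With all 10 libraries it was 13, against 9.71. In the sparse run from 2 to 10 Mb density gave 2.05 hypermethylated and 11.6 hypomethylated regions, against 0 and 13 called. The mean log2 fold change over the tested regions of a window and the mean that density gave had a Spearman correlation of 0.807 over the 30 windows, again as a description. The measured mean was the higher one in 18 windows.

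Each rat's own profile showed how far density moved with the groups. The density slope of a library is the change of its log2 normalized count, relative to the mean of the 8 libraries, per doubling of density plus 1. On chromosome 19 it was 0.0265, -0.0554, -0.119 and -0.0695 in control rats 1, 3, 4 and 5, and 0.045, 0.0343, 0.0571 and 0.0813 in SE rats 6, 8, 9 and 10. The groups did not overlap, although control rat 1 lay next to the SE rats and apart from the other control rats. On the other autosomes the slopes were 0.0218, -0.056, -0.11 and -0.0799 in control rats and 0.0444, 0.0213, 0.0718 and 0.0864 in SE rats, with control rat 1 above SE rat 8. Whether the slope stems from capture, from library making or from the tissue was not tested.

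The mean deviation of chromosome 19 in each rat followed a similar order. Control rats 1, 3, 4 and 5 stood at 0.0141, -0.0241, -0.0289 and -0.0352 on the log2 scale, where density gave 0.00462, -0.0123, -0.0242 and -0.0188. SE rats 6, 8, 9 and 10 stood at 0.0166, -0.000263, 0.028 and 0.0296, where density gave 0.00853, 0.0057, 0.0169 and 0.0195. Of the 8 rats, SE rat 8 was the one whose chromosome 19 lay nearer to the mean than density gave. The measured difference between the group means was 0.037 and that given by density 0.0253.

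**Figure D4:**
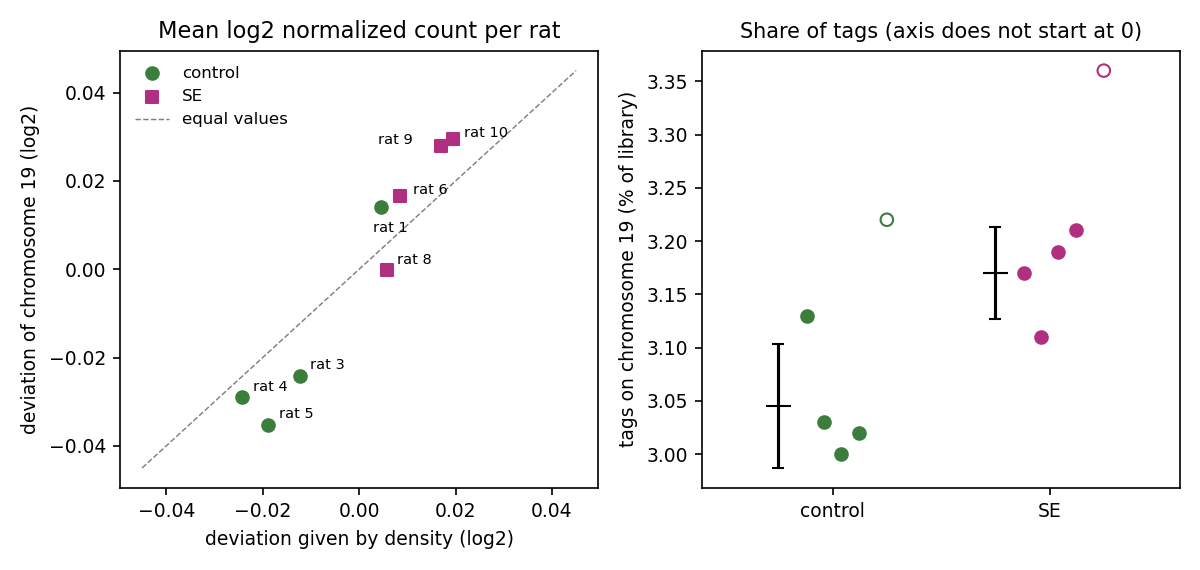
Left, the mean log2 normalized count of chromosome 19 in each rat, as a deviation from the mean of the 8 rats, against the deviation that density gives from the other autosomes, with equal values on the dashed line. Right, the share of each library's tags on chromosome 19 with the mean and SD of the 4 rats per group, where open circles are the discarded rats, at 3.22 and 3.36%, left out of mean and SD. Control rat 1 lies within the range of the SE rats on the vertical axis of both panels.

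When the density trend of each library, learnt on the other autosomes, was taken out before the test, fewer regions of chromosome 19 were called. Hypermethylated regions numbered 66 (0.705%, against 0.551% of all tested regions) and hypomethylated regions 52 (0.555%, against 0.688%). Chromosome 19 was then the second autosome by hypermethylated share, after chromosome 10. In the run from 46 to 56 Mb 27 of these hypermethylated regions lay, where density gave 10.5. With the trend learnt over density and mean count together, 62 regions (0.662%) were hypermethylated and 56 (0.598%) hypomethylated. The shares on the other autosomes were then 0.535 and 0.693%, and chromosome 19 ranked 3rd by hypermethylated share. For windows the trend was learnt over 20 bins of the number of regions per window, and not of neighbours within 50 kb. Of the 30 windows, 6 were then higher in SE rats (20.0%, against 15.9% of all windows) and 5 lower (16.7%, against 14.4%). Higher both with and without this step were 4 windows, those from 24 to 26 Mb, 48 to 50 Mb, 50 to 52 Mb and 52 to 54 Mb. No window was lower in both.

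The region of chromosome 19 that the study lists as shared with the brain injury model lies in an intron of Chmp1a, from 53523019 to 53523987 of RN4, in window 27. Chmp1a encodes a subunit of the ESCRT-III complex, which cuts membrane necks in endosomal sorting and cell division. In a current RefSeq annotation its neighbours are Sult5a1 and Dpep1 on one side and Spata33 and Cdk10 on the other. Its normalized count was 2.42, 3.71, 3.36 and 4.34 CPM in control rats 1, 3, 4 and 5 and 6.71, 4.80, 4.59 and 5.35 CPM in SE rats 6, 8, 9 and 10. All SE rats lay above all control rats, by a small margin between SE rat 9 and control rat 5. The SE mean of 5.36 ± 0.952 (SD, n = 4) stood against a control mean of 3.46 ± 0.803 (SD, n = 4), from 10 to 29 tags per library. The discarded rats had the reverse order, with 4.9 CPM in control rat 2 and 4.43 in SE rat 7. A log2 fold change of 0.62 (standard error 0.279) did not pass the threshold of p below 0.01 and had an adjusted p of 0.682 (edgeR's quasi-likelihood test). The region was listed by the study on these libraries, so its direction is not independent evidence.

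Of the hypermethylated regions whose groups did not overlap, the one with the smallest p, from 49511297 to 49512398 and labelled hyper 1 in the plot of regions by rat, had 3.38, 5.19, 2.85 and 2.69 CPM in control and 7.17, 6.48, 9.66 and 6.88 CPM in SE rats. Control rat 3 stood above the other control rats and still below every SE rat. It differed by a log2 fold change of 1.10 (standard error 0.259), from 11 to 40 tags per library. The discarded rats went the other way, with 7.45 CPM in control rat 2 and 1.06 in SE rat 7, and with all 10 libraries the log2 fold change was 0.48 and no longer called. The second, hyper 2 from 15703952 to 15704428, had 1.21, 1.48, 0.517 and 1.03 CPM in control and 1.85, 5.52, 2.66 and 2.67 CPM in SE rats (log2 fold change 1.54, standard error 0.427). SE rat 8 was far above the other SE rats there, on counts of 2 to 23 tags. Without SE rat 8 the region fell below the summed count needed for testing, so its call was not tested without this rat. In hyper 3, from 689916 to 690440, control rats had 1.69, 1.48, 1.29 and 0.414 CPM and SE rats 2.31, 3.12, 3.38 and 3.82 CPM (log2 fold change 1.39, standard error 0.411). Control rat 2, at 4.32 CPM, lay above SE rat 7, at 1.15 CPM, in this region too. The call was lost with all 10 libraries (log2 fold change 0.53) and without control rat 5 (1.08). Without SE rat 10 hyper 3 fell below the summed count needed for testing.

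In hyper 4, from 54307623 to 54308898, control rats had 4.84, 5.44, 5.43 and 4.76 CPM and SE rats 7.86, 10.8, 7.97 and 8.21 CPM (log2 fold change 0.77, standard error 0.226). The control rats lay close together, and SE rat 8 was the highest SE rat. Control rat 2 had 6.86 CPM and SE rat 7 had 5.5, and the call was lost with all 10 libraries (log2 fold change 0.54). In hyper 5, from 25217246 to 25217761, control rats had 1.21, 1.24, 1.29 and 1.03 CPM and SE rats 3.47, 3.84, 3.14 and 2.10 CPM (log2 fold change 1.37, standard error 0.406). The discarded rats had the order of the groups in hyper 5, with 2.94 CPM in control rat 2 and 4.08 in SE rat 7. Without SE rat 6 or SE rat 8, hyper 5 fell below the summed count needed for testing. Of these 5 regions, hyper 1 lay in window 25, hyper 4 in window 28 and hyper 5 in window 13, while the longest stretch without a hypermethylated region began at the end of hyper 3.

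The hypomethylated region with the smallest p among those without overlap, hypo 1 from 52941426 to 52942775, held far more tags than the other named regions, from 230 to 432 per library. Control rats had 70.8, 73.4, 83.8 and 89.3 CPM and SE rats 58.3, 58.8, 55.5 and 53.3 CPM. The SE rats lay close together and below every control rat. The SE mean of 56.5 ± 2.56 (SD, n = 4) stood against a control mean of 79.3 ± 8.71 (SD, n = 4). The log2 fold change was -0.49 (standard error 0.118) and the adjusted p 0.282 (same edgeR test). It lay in window 27, the densest of the chromosome, with 52 regions within 50 kb, among the hypermethylated regions of that window. The discarded rats went the other way, with 25.3 CPM in control rat 2 and 101 in SE rat 7, and with all 10 libraries the log2 fold change was -0.0817.

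In hypo 2, from 6464388 to 6465486, control rats had 4.59, 5.68, 11.6 and 6.0 CPM and SE rats 4.16, 3.12, 1.69 and 3.44 CPM (log2 fold change -1.14, standard error 0.283), with control rat 4 far above the others. Without this rat the log2 fold change was -0.80 and not called. In hypo 3, from 46592351 to 46592596, control rats had 3.14, 3.21, 3.88 and 2.48 CPM and SE rats 0.925, 1.2, 0.724 and 1.53 CPM (log2 fold change -1.48, standard error 0.408). It marks the proximal end of the long stretch without hypomethylated regions. In hypo 4, from 4453485 to 4454144, control rats had 2.66, 3.21, 5.69 and 4.55 CPM and SE rats 1.85, 1.2, 1.69 and 1.91 CPM (log2 fold change -1.25, standard error 0.359). Hypo 5, from 16123852 to 16124210, had 4.11, 2.22, 3.36 and 2.90 CPM in control and 1.62, 0.96, 0.724 and 1.34 CPM in SE rats (log2 fold change -1.40, standard error 0.407). Hypo 2 and hypo 4 lay in sparse surroundings, with 9 and 12 neighbours within 50 kb, and hypo 3 and hypo 5 in denser ones, with 34 and 56. Control rat 2 and SE rat 7 had the order of the groups in hypo 2 (3.14 and 0.0 CPM) and hypo 4 (2.55 and 0.975 CPM). In hypo 5 they had the reverse order (1.18 and 2.22 CPM). With all 10 libraries hyper 5 and hypo 4 were still called, at log2 fold changes of 1.08 and -1.31, whereas hypo 2 (-1.40) and hypo 5 (-0.90) were not, and hyper 2 and hypo 3 did not pass the filter. Without control rat 1, 3 or 4, hypo 3 fell below the summed count needed for testing. The same held for hypo 5 without control rat 1 or 4.

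**Figure D5:**
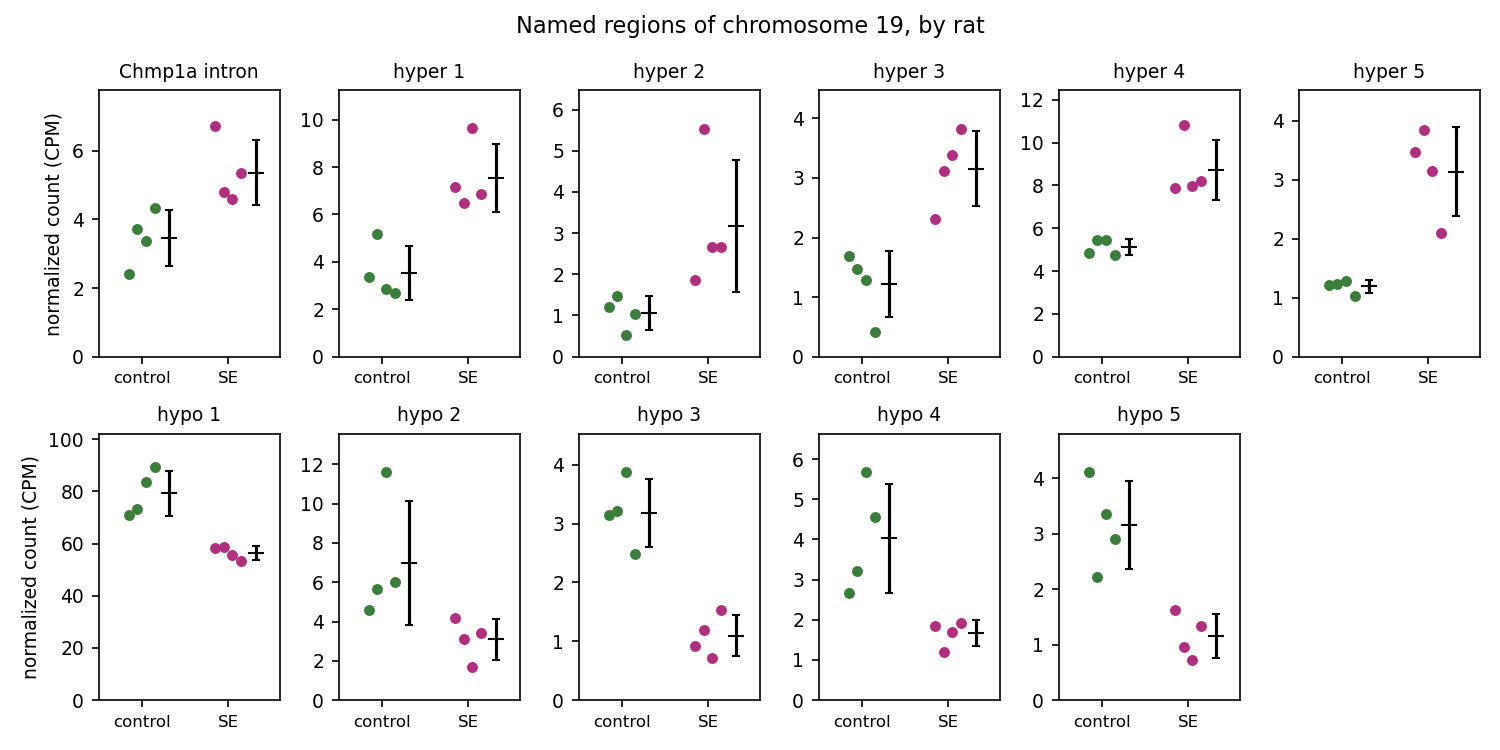
Normalized counts (CPM, axes start at 0) of the Chmp1a region and of the 5 hypermethylated (hyper) and 5 hypomethylated (hypo) regions of chromosome 19 with the smallest p among those whose groups did not overlap, with 1 point per rat and the mean and SD of 4 rats beside it. By this choice all SE rats lie on 1 side of all control rats in the called regions, and SE rat 8 stands highest in hyper 2 and hyper 4.

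The discarded rats, whose values entered neither the choice of the chromosome nor the calls, did not separate in the direction of the groups in hypermethylated regions. Their libraries may have helped to define the regions of the table, and their counts entered the filter of the fit with all 10 libraries. Of the hypermethylated regions 81 were also tested with all 10 libraries, and SE rat 7 lay above control rat 2 in 34 of them (42.0%), against 49.6% of the 8698 chromosome 19 regions tested both ways. Of the hypomethylated regions 44 were tested, and SE rat 7 lay above control rat 2 in 8 (18.2%). In 2 Mb windows SE rat 7 lay above control rat 2 in 17 of 30. Of the windows called higher in SE, it lay below control rat 2 in windows 13, 26 and 29 and above it in the others. In windows 2, 3 and 4, called lower, it had 101, 225 and 244 CPM, against 176, 281 and 247 in control rat 2. The density slope of SE rat 7 on chromosome 19 was 0.572 and that of control rat 2 0.0486, on a common scale on which the other 8 rats lay between -0.115 and 0.0707. With 1 rat per group this comparison has no replicate check, and the part of the slope in it was not tested.

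With all 10 libraries in the fit, 45 chromosome 19 regions (0.467%) were hypermethylated and 21 (0.218%) hypomethylated, against 0.282 and 0.215% of all tested regions, and the chromosome again had the highest hypermethylated share. Local density gave 0.32% hypermethylated and 0.156% hypomethylated regions there. The hypomethylated share thus lay above the given one, whereas with 8 libraries it lay below. In that fit 0 of its windows were called in either direction at an adjusted p below 0.05 (edgeR's quasi-likelihood test), as were 0 of all 1340 windows. At an unadjusted p below 0.05, 6 windows of chromosome 19 (20.0%) were higher in SE rats, against 5.6% of all windows, and 0 were lower, against 12.3%. Positive log2 fold changes were found in 22 of the 30 windows. The run from 46 to 56 Mb held 13 hypermethylated regions (0.511%), where density gave 9.71, and the rest of the chromosome held 0.451%.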

How the data were processed

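Methylated DNA of 10 rats was measured, with 1 library per animal. The authors deposited raw tag counts for each region, from 36 bp reads and without normalization. The authors aligned the reads to RN4 with BWA, called differences between all pairs of libraries with MACS (shift of 75 bp), merged these regions with BEDTools, removed duplicate tags and counted tags per region. The table therefore holds regions that differed between at least 1 pair of libraries. Whether its positions count from 0 or from 1 was not given in the sources used here. All columns belonged to rats in the labels, and rats were grouped by the labels.

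Regions with a summed count over the 8 libraries of at least 70, the 50th percentile, entered a two-sided quasi-likelihood F test (edgeR 4.0.16 in R 4.3.3) with TMM normalization and condition as the only term. Calls used an unadjusted p below 0.01 or a Benjamini-Hochberg adjusted p below 0.05 over all 291987 tested regions. The common dispersion was 0.0336. CPM are relative to the tags in tested regions, or in windows, scaled by TMM. Windows summed the tags of all regions except those of the left-out intervals, by midpoint, needed at least 20 regions and were fitted over the whole genome. Density-given values are those of the other autosomes in 20 density bins, weighted by the tested regions of chromosome 19. Per-rat deviations came from log2 CPM (prior count 2).

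Regions named are the chromosome 19 region listed by the study as shared between models, the 5 called regions of lowest p, higher and lower, without overlap of the groups, and the 2 on either side of the threshold. Windows named are the 4 highest and 4 lowest and the densest and sparsest. The members, lists and tests were chosen with earlier results of these data known. The fit was tested on simulated data.

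Alternatives were library totals, upper-quartile normalization, edgeR's exact test, DESeq2 (version 1.42.0), other filters, all 10 libraries, leaving out each single rat, density offsets, and other windows, radii and bins. Windows with the left-out intervals were added after seeing the data. The precision is limited by counting error in single regions, at a median of 12.4 tags. Sequences and gene annotation of RN4 were not used here.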

Additional observations from a re-analysis of the deposited data

Results flagged for a closer look

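In 2 of 44 groups of 4 rats examined, 1 rat stood apart from the other 3 by Dixon's criterion, which chance alone meets in about 1 in 20 groups. In the hypermethylated region from 54307623 to 54308898 (hyper 4), SE rat 8 was the highest SE rat, at 10.8 CPM, with the other SE rats between 7.86 and 8.21. In the window from 6 to 8 Mb SE rat 10 was the lowest SE rat, at 263 CPM, with the other SE rats at 288.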

How the results depend on the processing

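On chromosome 19, the 90 hypermethylated and 54 hypomethylated regions became 24 and 22 with DESeq2, 25 and 19 with at least 10 counts in every library, which tested 2569 regions, and 45 and 21 with all 10 libraries. Without a region filter, over 17550 regions, 140 were hypermethylated. Leaving out 1 rat gave 62 to 97 hypermethylated and 38 to 62 hypomethylated regions. The hypermethylated share of chromosome 19 was the highest of the autosomes in 10 of 18 settings, and its lowest rank was 6, without SE rat 6. The 13 windows higher in SE were 24 with 1 Mb windows, 7 with 4 Mb windows, 6 with density offsets, 0 with all 10 libraries and 8 to 18 with 1 rat left out, lowest without control rat 5, SE rat 9 or SE rat 10. The 3 windows lower in SE were 7 with 1 Mb windows, 1 with 4 Mb windows, 5 with library totals, 5 with density offsets, 0 with all 10 libraries and 1 to 3 with 1 rat left out. The difference in the share of tags ran from 0.109 to 0.152 percentage points. The hypermethylated share given by density was 0.32% with all 10 libraries and 0.552 to 0.782% with 1 rat left out, and the log2 fold change given by density 0.00202 and 0.0228 to 0.0438, the highest without control rat 1. Of 169 values of the named regions under the alternatives, 161 kept their direction and side of the threshold, 8 kept the direction only, and none was reversed. A region that did not pass the filter of an alternative gave no value there. All but the Chmp1a region were chosen on these libraries by lowest p without overlap, so a kept direction is no independent support. The Chmp1a region kept its side of the threshold by staying uncalled. Apart from the smaller number of regions or rats in some of these settings, the cause of these moves was not tested. No paired analysis was possible because no rat number occurs in both groups.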
